A study of Mus musculus and Homo sapiens with 34 samples.

Results

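Il33, its IL-1 family relatives and a set of growth cytokines were followed through every drug and gene-deletion experiment of the series. The 10 genes, chosen by name, were Il33, Il18, Il1a, Il1b, Il1rn, Il6, Lif, Csf1, Csf2 and Csf3 (upper-case symbols in the human lines), out of 21401 genes listed in any of the 4 mouse tables and 27030 in any of the 3 human tables. Between 6 and 9 of the 10 had a row in a table, and between 5 and 8 passed the filter on low counts and were tested. Il1b was not analysed here in mouse and CSF3 was not analysed here in human. Il6 and Csf3 in the 48-hour 3154 experiment, Il1a and Csf3 in 3311, and IL33, IL1RN and CSF2 in the doxycycline experiment were also not analysed here.

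IL-33, IL-18, IL-1α and IL-1β are related cytokines that signal through paired receptors and the adaptor MYD88 to NF-κB. IL-33 is kept in the nucleus of epithelial cells of the lung and other barrier tissues and acts as an alarm signal when the cells are damaged, through the receptor ST2 (gene Il1rl1). IL-1β and IL-18 are made as precursors and cut by caspase-1, and IL-1RN occupies the IL-1 receptor without signalling. IL-6 and LIF signal through the shared receptor chain gp130 (gene Il6st) to STAT3. M-CSF (Csf1), GM-CSF (Csf2) and G-CSF (Csf3) drive growth and survival of macrophages, granulocytes and their precursors.

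The data are 34 RNA-seq libraries, 22 of mouse and 12 of human lung adenocarcinoma cultures, in 17 groups of 2 replicates. 3154 are mouse lung organoids whose labelled alleles include p53frt, Rosa-FSF-CreERT2 and Hnf4aflox, in which 4-hydroxytamoxifen (4OHT) activates the Cre recombinase and removes Hnf4a, a transcription factor of gut and liver cells. They were sampled 2 weeks after ethanol or 4OHT, and, in another experiment of 48 hours, after ethanol or 4OHT with vehicle or 3 nM of the small-molecule inhibitor MRTX1133. The labels do not make clear how long before harvest 4OHT was given in the latter, so 48 hours names that experiment and is not read as a time since deletion. 1027B organoids and the 3311 cell line carry alleles that include p53frt, Rosa-FSF-CreERT2, Foxa1flox and Foxa2flox, and no 4OHT is named for them. Trametinib, which blocks the kinase MEK upstream of ERK, was given for 48 hours at 10 nM to 1027B, at 50 nM to 3311 and at 20 nM to the human lines H358 and H1651, each beside vehicle, and 1027B also had a group with 20 nM MRTX1133. H1651 cells with a lentiviral HNF4α construct were grown for 7 days without doxycycline or with 1 µg/mL of it. All organoid groups were grown in medium conditioned by other cells. Each line is 1 culture line, and the labels do not say whether replicates were separate cultures, so the p values measure the spread between these libraries, which may be technical.

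The sequences shown first are the 250 bases before the RefSeq start (GRCm38.p6) of the 5 genes that were called in the same direction in 3 or more comparisons (for Lif, 1 of them is that of human LIF in H358), because they are the promoter stretches of the genes the results turn on. Il33 has a window at each of its 2 RefSeq starts, at chr19:29924863-29925112 on the plus strand and at chr19:29945540-29945789, which lies inside the gene. The others are Lif (chr11:4257318-4257567, plus strand), Il18 (chr9:50554450-50554699, plus), Csf1 (chr3:107760470-107760719, minus) and Csf2 (chr11:54249900-54250149, minus). Each is printed 5′ to 3′ on the gene's strand, and capitals mark the match to the AP-1 motif TGANTCA.
Il33, upstream start: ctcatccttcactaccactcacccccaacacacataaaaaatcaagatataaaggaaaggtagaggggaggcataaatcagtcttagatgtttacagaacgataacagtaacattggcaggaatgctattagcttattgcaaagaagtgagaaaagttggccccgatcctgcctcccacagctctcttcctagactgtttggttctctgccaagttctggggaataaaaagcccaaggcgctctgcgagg
Il33, internal start: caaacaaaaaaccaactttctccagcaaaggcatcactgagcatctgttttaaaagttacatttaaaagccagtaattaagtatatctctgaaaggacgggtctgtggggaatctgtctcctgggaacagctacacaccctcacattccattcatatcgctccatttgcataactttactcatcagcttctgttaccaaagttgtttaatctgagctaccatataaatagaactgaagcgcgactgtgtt
Lif: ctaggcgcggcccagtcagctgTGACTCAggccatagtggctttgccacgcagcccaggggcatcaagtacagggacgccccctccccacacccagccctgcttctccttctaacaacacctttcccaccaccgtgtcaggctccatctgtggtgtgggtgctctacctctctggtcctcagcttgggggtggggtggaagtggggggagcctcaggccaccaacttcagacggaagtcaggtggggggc
Il18: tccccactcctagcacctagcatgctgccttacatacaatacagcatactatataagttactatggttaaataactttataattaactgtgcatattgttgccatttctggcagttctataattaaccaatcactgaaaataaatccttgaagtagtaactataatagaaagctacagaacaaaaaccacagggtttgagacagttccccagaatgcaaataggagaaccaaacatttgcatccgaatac
Csf1: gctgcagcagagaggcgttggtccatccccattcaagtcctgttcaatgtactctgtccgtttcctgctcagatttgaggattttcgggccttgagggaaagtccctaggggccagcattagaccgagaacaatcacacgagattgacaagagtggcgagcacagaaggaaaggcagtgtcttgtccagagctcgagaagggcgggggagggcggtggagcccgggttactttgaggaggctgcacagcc
Csf2: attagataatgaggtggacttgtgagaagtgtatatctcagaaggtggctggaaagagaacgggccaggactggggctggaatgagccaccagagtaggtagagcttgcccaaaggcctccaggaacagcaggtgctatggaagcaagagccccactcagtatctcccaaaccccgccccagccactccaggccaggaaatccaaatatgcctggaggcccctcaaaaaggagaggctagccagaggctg
The motif TGANTCA, searched on both strands, was found once, at position -228 from the start of Lif, and 6.75% of 32851 RefSeq windows of this length hold it. The ETS motif CCGGAAG, likewise searched on both strands, was in none of the 6 windows and in 6.91% of all windows. These matches describe letters in the windows and not binding.

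Total counts ran from 19692517 to 45284286 per library, and levels are given in CPM, the counts relative to library size scaled by TMM, which corrects for depth and composition within a table and not between tables. Hnf4a, the gene targeted by 4OHT, was at 371 ± 79.6 CPM (SD, n = 2) with ethanol and 60.7 ± 10.2 with 4OHT at 2 weeks, and at 225 ± 6.6 and 49.9 ± 0.677 in the vehicle arms of the 48-hour experiment. HNF4A rose from 41.5 ± 7.89 to 95.6 ± 1.73 CPM with doxycycline. The drugs also lowered Hnf4a in 1027B (log2 change -1.01 with trametinib, -0.76 with MRTX1133) and MRTX1133 did so in 3154 with 4OHT (-0.86). It was not called with MRTX1133 in 3154 with ethanol (-0.31), nor with trametinib in 3311 (-0.39) or H1651 (-0.07). The part of Hnf4a in the members' changes with the drugs was not tested. Of 10 genes that respond to ERK signalling, 10 fell with trametinib in 3311 and in H358 and 9 in 1027B, and none passed the test in H1651, where their median log2 change was -1.94. MRTX1133 lowered 5 of the 10 in 1027B, 3 in 3154 with 4OHT and 0 in 3154 with ethanol, where their median log2 change was -0.23. Epithelial markers summed to between 6160 and 11100 CPM in mouse libraries and between 3700 and 6980 in human ones, while leukocyte markers summed to at most 44.7 and 14.7 CPM. Fibroblast markers summed to at most 15.8 CPM in mouse and 548 in human libraries.

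A gene was called when its Benjamini-Hochberg adjusted p from edgeR's quasi-likelihood F-test, taken over all genes of the table, was under 0.05. Hnf4a deletion at 2 weeks changed 4 of 8 tested members (3 higher, 1 lower), where 9.81% of all genes were called (4.03% higher, 5.78% lower). In the 48-hour experiment deletion changed 5 of 6 in vehicle (4 higher, 1 lower), where 31.0% of all genes were called (15.3% higher, 15.7% lower), and 4 of 6 under MRTX1133 (3 higher, 1 lower), where 27.7% were (13.2% higher, 14.5% lower). MRTX1133 changed 0 of 6 members in 3154 with ethanol, where 0.349% of all genes were called (0.317% higher, 0.0323% lower). With 4OHT it changed 1 of 6, lower (4.64% of all genes; 2.10% higher, 2.54% lower), and in 1027B 1 of 7, lower (6.27%; 3.01% higher, 3.26% lower). With the replicate block, which the numbering of the 1027B libraries supports, the latter count was 4 of 7 (Il18 and Csf1 higher, Il33 and Lif lower) and 3515 genes were called in place of 913. Trametinib changed 3 of 7 in 1027B (1 higher, 2 lower), where 26.7% of all genes were called (13.5% higher, 13.2% lower), and with the block 5 of 7 (Il18 and Csf1 higher, Il33, Lif and Il1a lower) with 6540 genes in place of 3880. In 3311 it changed 3 of 6, all lower (39.0%; 19.4% higher, 19.6% lower). It changed 3 of 8 in H358 (1 higher, 2 lower), where 46.8% were called (23.5% higher, 23.2% lower), and 0 of 5 in H1651 (0.00%). Doxycycline changed 0 of 5 (1.42%; 1.04% higher, 0.386% lower). The median log2 change of the tested members was 1.87 for the 2-week deletion comparison and 1.92 for the vehicle arm of the 48-hour one, beside medians of 0.018 and 0.01 over all genes. Several members were tested only because the 4OHT libraries lifted them over the count filter, so the deletion counts and medians, and the tests of those members, are descriptions. In both ethanol libraries without MRTX1133, Il1a, Csf1 and Csf3 at 2 weeks and Il18, Csf1 and Csf2 at 48 hours had under 10 counts. Il18 in 1027B had 6 and 5 counts with vehicle and was tested only through the drug libraries, so its part in the 1027B calls is a description too. With at least 10 counts required in every library, deletion called 1 member at 2 weeks, 2 at 48 hours in vehicle and 1 under MRTX1133. With trametinib the members' median was -0.95 in 1027B, -0.56 in 3311, 0.10 in H358 and -0.89 in H1651.

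**Figure D1:**
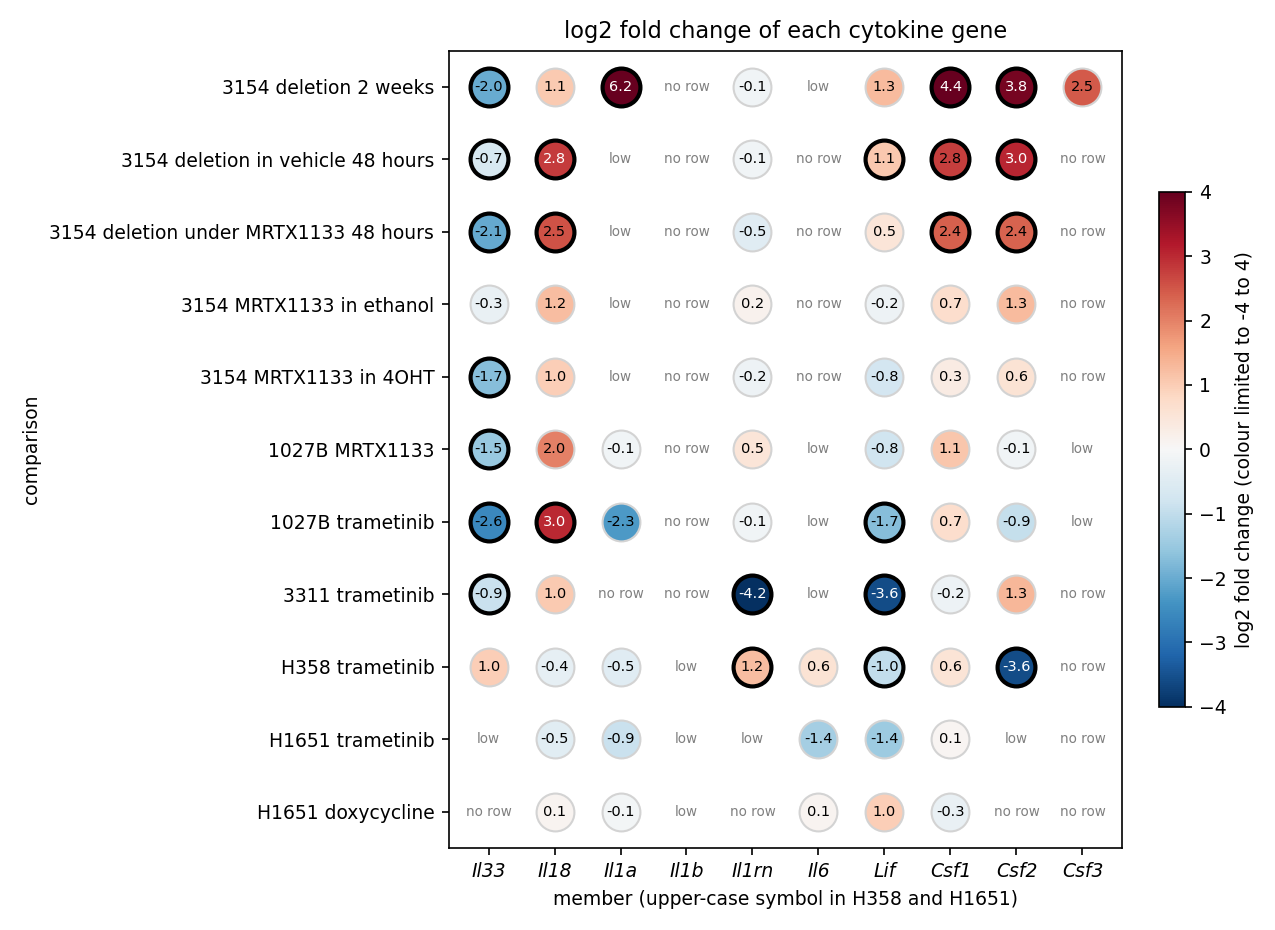
Log2 fold change (number and colour) of each cytokine gene (columns) in 11 comparisons with the matching control (rows), with a thick black ring where edgeR's adjusted p was under 0.05, "low" for too few counts to test and "no row" for a gene not analysed here. Ringed Il33 circles are all blue (7 comparisons), while ringed Csf1 circles are all red and lie in the 3 deletion rows.

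Il33, the alarm cytokine, fell in every mouse comparison in which it was called and had its highest level in 1027B. The 1027B vehicle libraries held 556 and 491 CPM, those with 20 nM MRTX1133 177 and 188, and those with 10 nM trametinib 94.6 and 80.1. The groups did not overlap, and the trametinib libraries were lowest. The log2 change was -2.58 ± 0.13 (SE) with trametinib (edgeR adjusted p = 0.000379) and -1.52 ± 0.12 with MRTX1133 (edgeR adjusted p = 0.00365), and both kept their call when any 1 library was left out. Both drugs were compared with the same vehicle libraries. Il33 was 1.06 ± 0.12 log2 units higher with MRTX1133 than with trametinib, at the doses used (edgeR adjusted p = 0.0679). With the replicate number as a block, which the 1027B libraries support, that difference was 1.07 (edgeR adjusted p = 0.000989). Across all genes, edgeR called 0.00% between the drugs, although 2357 had an unadjusted p below 0.05, and DESeq2 called 675.

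Hnf4a deletion lowered Il33 in 3154. At 2 weeks the ethanol libraries held 32.1 and 82.3 CPM and the 4OHT libraries 12.5 and 15.3. The groups did not overlap, although the ethanol libraries differed from each other by more than the 4OHT libraries did. The log2 change was -2.03 ± 0.45 (edgeR adjusted p = 0.0464). The call was lost without 4OHT replicate 1 (adjusted p = 0.175) or 4OHT replicate 2 (0.112), and the change was -1.20 without ethanol replicate 2, still called. In these bulk cultures fewer cells of a type and less RNA per cell cannot be told apart.

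At 48 hours the deletion and MRTX1133 met in 1 experiment of 4 groups. Il33 stood at 41.8 and 33.9 CPM with ethanol, 28.0 and 33.4 with ethanol and MRTX1133, 26.5 and 21.3 with 4OHT, and 7.65 and 7.06 with both. Every library with both treatments was below every other library, while ethanol with MRTX1133 lay just under ethanol alone without overlap. Deletion changed Il33 by -0.66 ± 0.18 log2 units in vehicle (edgeR adjusted p = 0.0240) and by -2.06 ± 0.19 under MRTX1133 (edgeR adjusted p = 0.000379). MRTX1133 changed it by -0.30 in ethanol (edgeR adjusted p = 0.562) and by -1.70 ± 0.18 in 4OHT (edgeR adjusted p = 0.0131). The interaction, which asks whether the effects add up on the log2 scale, was -1.40 ± 0.25 with an unadjusted edgeR p of 0.000541 and an adjusted p of 0.541, so it did not pass. Over all genes edgeR called 0.00% for the interaction, with 1150 genes at an unadjusted p under 0.05. DESeq2 called 32 genes, Il33 among them (log2 change -1.38, adjusted p = 0.00947).

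Of the 48-hour calls of Il33, 2 rested on single libraries. The deletion call in vehicle was lost without 4OHT replicate 1 (-0.83, edgeR adjusted p = 0.0589), without 4OHT replicate 2 (-0.52, 0.184), without ethanol replicate 1 (-0.51, 0.0686), and in a fit of these 2 groups alone (-0.67, 0.0679). The MRTX1133 call in 4OHT was lost whichever of its 4 libraries was left out, with log2 changes from -1.85 to -1.53 and edgeR adjusted p from 0.07 to 0.201. Under MRTX1133 the deletion call held whichever library was left out, with log2 changes from -2.17 to -1.93.

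**Figure D2:**
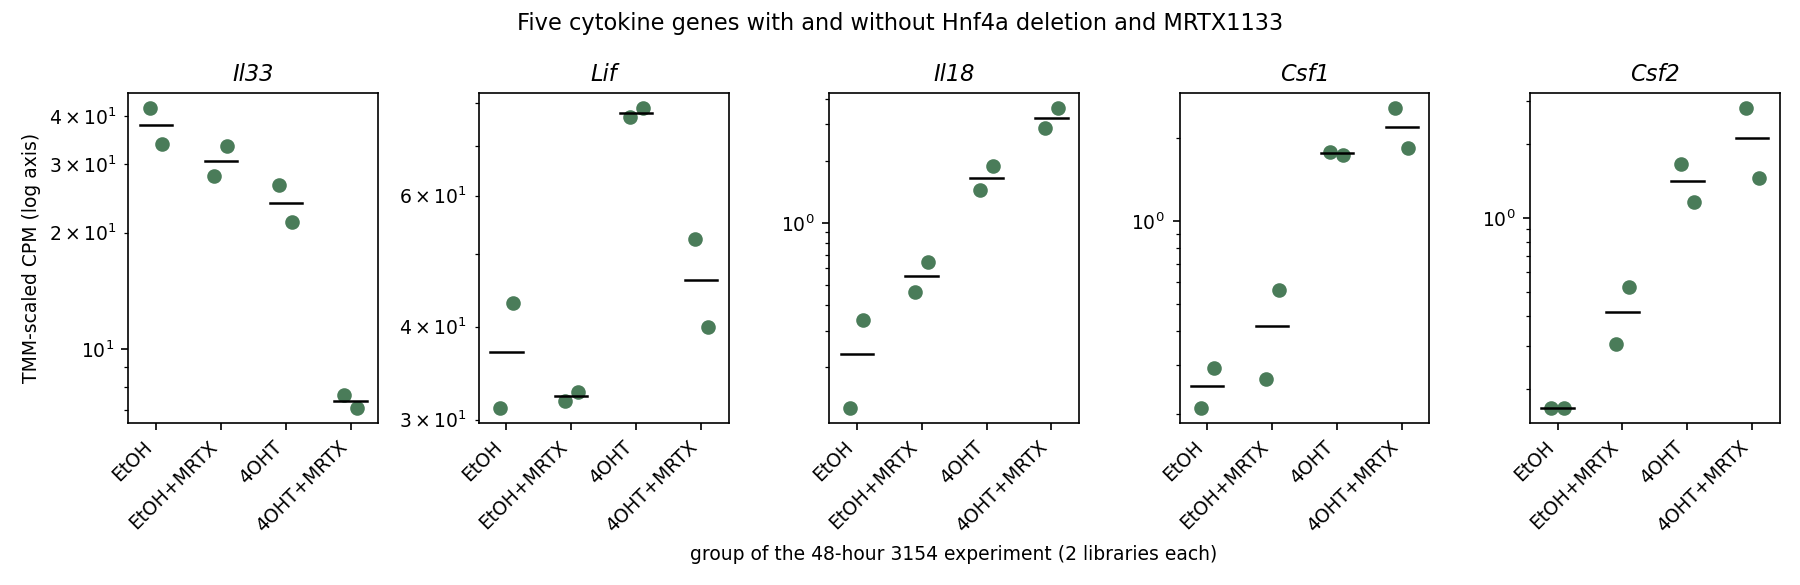
TMM-scaled CPM (log axis, scaled to each gene) of Il33, Lif, Il18, Csf1 and Csf2 in the 4 groups of the 48-hour 3154 experiment, with a point per library and a line at the mean. Il33 is lowest where 4OHT and MRTX1133 were combined (7.06 and 7.65 CPM), and Il18, Csf1 and Csf2 are higher in every 4OHT library than in every ethanol library.

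In 3311 trametinib lowered Il33 from 55.4 and 62.9 CPM to 21.9 and 41.7. The trametinib libraries were both below the vehicle libraries, with replicate 2 the closer of them. The log2 change was -0.90 ± 0.28 (edgeR adjusted p = 0.0422), and it lost its call without vehicle replicate 1 (edgeR adjusted p = 0.0924), vehicle replicate 2 (0.127) or trametinib replicate 1 (-0.51, 0.156). Ordered by mean, Il33 ran from 523 ± 46 CPM in 1027B vehicle through 59.2 ± 5.3 in 3311 vehicle, 57.2 ± 35.5 in 3154 ethanol at 2 weeks and 37.9 ± 5.6 in 3154 ethanol at 48 hours to 7.36 ± 0.414 in 3154 with 4OHT and MRTX1133. The ranges of 3311 vehicle, both 3154 ethanol groups, 3311 trametinib (31.8 ± 14) and 3154 ethanol with MRTX1133 (30.7 ± 3.81) overlapped between neighbours in that order, so neighbours among them are not resolved, while groups further apart in it may be, as vehicle and trametinib in 3311 are. The tables were scaled separately.

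**Figure D3:**
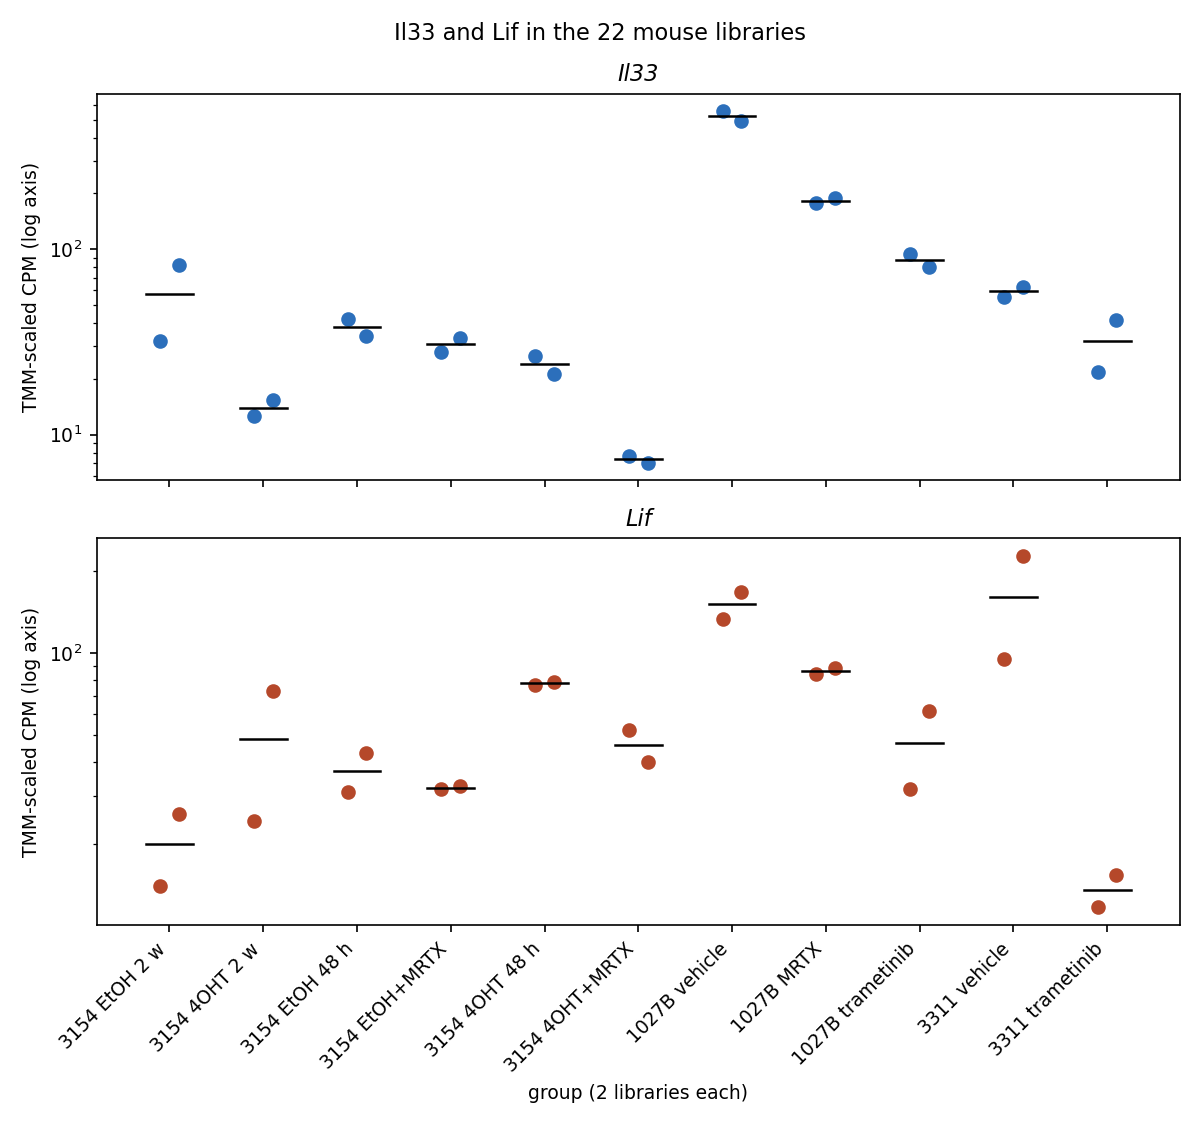
TMM-scaled CPM (log axis) of Il33 (top) and Lif (bottom) in the 22 mouse libraries, with a point per library and a line at the mean of each of the 11 groups; the tables were scaled separately. Il33 is highest in 1027B vehicle (491 and 556 CPM), and Lif in 3311 goes from 95.2 and 227 CPM with vehicle to 11.8 and 15.4 with trametinib.

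The genes whose levels followed Il33 most closely over the 22 mouse libraries, among 10471 genes with a mean of at least 5 CPM, were Zfp36l2 (Pearson r = 0.95), Fyttd1 (0.92), Pear1 (0.92), Nek6 (0.91) and Khsrp (0.91). These values are descriptions: the libraries come from 3 lines and 4 tables, so differences between lines enter r. Among the other members r with Il33 was 0.47 for Lif, 0.36 for Csf1, -0.03 for Csf2, -0.45 for Il18 and -0.52 for Il1rn.

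Il18, the caspase-cut relative of Il33, moved the other way from Il33 where it was called. At 48 hours in 3154 it was at 0.126 and 0.336 CPM with ethanol, 0.459 and 0.643 with ethanol and MRTX1133, 1.44 and 1.88 with 4OHT, and 2.88 and 3.58 with both. The 4 groups did not overlap and the levels were low, from 3 counts in the lowest library to 101 in the highest. With ethanol alone the libraries held 3 and 8 counts, so the gene was tested through the other groups, and its tests here are descriptions. Deletion raised it by 2.81 ± 0.45 log2 units in vehicle (edgeR adjusted p = 0.00323) and 2.55 ± 0.37 under MRTX1133 (edgeR adjusted p = 0.00224), and by 3.65 in vehicle without ethanol replicate 2. At 2 weeks the libraries held 1.48 and 1.30 CPM with ethanol and 2.27 and 3.52 with 4OHT, a change of 1.05 that did not pass (edgeR adjusted p = 0.132).

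In 1027B Il18 stood at 0.29 and 0.271 CPM with vehicle, 1.45 and 0.847 with MRTX1133, and 3.38 and 1.26 with trametinib. Both drugs' libraries lay above vehicle. The vehicle libraries held 6 and 5 counts, so the gene passed the count filter only through the drug libraries, and its tests here are descriptions. The change with trametinib was 3.02 ± 0.65 (edgeR adjusted p = 0.0174), and the call was lost without vehicle replicate 1 (edgeR adjusted p = 0.074), vehicle replicate 2 (0.0791) or trametinib replicate 1 (2.14, 0.0971). With MRTX1133 it was 2.02 (edgeR adjusted p = 0.136), and 2.01 with the replicate block (edgeR adjusted p = 0.0256). In 3311 the libraries held 2.49 and 5.22 CPM with vehicle and 8.64 and 7.23 with trametinib, a change of 1.04 (edgeR adjusted p = 0.0655) that passed without vehicle replicate 2 (1.67, 0.0106) or trametinib replicate 2 (1.16, 0.0449) and was 0.60 without vehicle replicate 1.

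Il1a, whose product is active without caspase cleavage, rose after deletion at 2 weeks from a level at the counting floor. The ethanol libraries held 0 and 1 counts and the 4OHT libraries 51 and 50, which is 1.67 and 1.87 CPM. The ratio of counts per depth was 93 with a 95% counting interval from 16.3 to 3710 (edgeR adjusted p = 0.0130), and the interval covers counting error only. The gene passed the count filter only through the 4OHT libraries. Its fitted log2 change of 6.22 was 5.15 without ethanol replicate 1 and 8.70 without ethanol replicate 2. It includes the 21-fold rise of Csf1, so which of the 2 rose more is not resolved. At 48 hours Il1a was too low to test, with 1 and 3 counts with ethanol, 1 and 0 with ethanol and MRTX1133, 2 and 4 with 4OHT and 6 and 3 with both, so no 4OHT library came near the 50 and 51 counts of the 2-week experiment. In 1027B the gene fell short of a call with trametinib, from 13 and 10 counts to 1 and 4 (log2 change -2.30, edgeR adjusted p = 0.0701), and was called with the replicate block (-2.37, edgeR adjusted p = 0.0349). With 1 library left out it ran from -3.56 to -1.62 and was not called. Reads of Il1a and of the opposite-strand gene Gm14023, which covers 11.2% of its exon bases, could mix if counting ignored strand, which the sources used here do not state.

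Il1rn, which encodes the receptor antagonist, had the largest fitted log2 fall of any member in 3311. That of Lif was -3.57 ± 0.41, so which of the 2 fell more is not resolved. It stood at 29.4 and 54.9 CPM with vehicle and at 1.94 and 2.62 with trametinib. The groups were far apart, and the log2 change of -4.21 ± 0.36 (edgeR adjusted p = 0.000566) kept its call when any 1 library was left out. In 3154 it was at 7.12 and 6.83 CPM with ethanol and 6.53 and 6.0 with 4OHT at 2 weeks, a change of -0.15 (edgeR adjusted p = 0.678). In 1027B no library exceeded 40 counts of Il1rn, and its sign depended on single libraries.

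Lif, the gp130 ligand best known for holding stem cells undifferentiated, fell with trametinib in both mouse lines and rose with Hnf4a deletion in the vehicle arm of the 48-hour experiment. In 3311 it went from 95.2 and 227 CPM to 11.8 and 15.4 with trametinib, a log2 change of -3.57 ± 0.41 (edgeR adjusted p = 0.00127), or -2.81 without vehicle replicate 2. In 1027B it stood at 133 and 168 CPM with vehicle, 84.0 and 88.6 with MRTX1133 and 31.9 and 61.6 with trametinib, without overlap between groups. The change with trametinib was -1.69 ± 0.29 (edgeR adjusted p = 0.00804). With MRTX1133 it was -0.80 (edgeR adjusted p = 0.150), which passed with the replicate block (-0.78, edgeR adjusted p = 0.0117), as did the difference between the drugs (0.88, edgeR adjusted p = 0.218; 0.94 and 0.0113 with the block).

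In the 48-hour 3154 experiment Lif was at 31.1 and 43.0 CPM with ethanol, 31.8 and 32.7 with ethanol and MRTX1133, 76.5 and 78.5 with 4OHT, and 52.4 and 40.0 with both. Libraries with 4OHT alone were the highest. Deletion raised Lif by 1.07 ± 0.19 log2 units in vehicle (edgeR adjusted p = 0.00537), while under MRTX1133 the change was 0.52 (edgeR adjusted p = 0.0786). The interaction was -0.55 (edgeR adjusted p = 0.736), so a difference between the arms was not shown. MRTX1133 changed Lif by -0.75 in the 4OHT arm (edgeR adjusted p = 0.069), which DESeq2 called (adjusted p = 0.00838). At 2 weeks the ethanol libraries held 14.1 and 25.9 CPM and the 4OHT libraries 24.3 and 72.7, which overlap (1.28, edgeR adjusted p = 0.193), and the change rested on single libraries. It was 0.28 without 4OHT replicate 2 (edgeR adjusted p = 0.723) and 1.77 without ethanol replicate 2 (0.0355).

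Il6, the founding member of the gp130 ligands, was near the floor in mouse. It had at most 7 counts in any 1027B library and 2 in any 3154 library at 2 weeks, and among the mouse libraries in which it was analysed 3311 trametinib replicate 1 was the highest, with 13 counts against 1 in its replicate.

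Csf1 and Csf2 rose with Hnf4a deletion in both 3154 experiments, while Csf3 did not pass at 2 weeks. Csf1, the macrophage growth factor, was at 0.231 and 0.359 CPM with ethanol at 2 weeks and at 6.57 and 5.77 with 4OHT. At 48 hours it stood at 0.21 and 0.294 CPM with ethanol, 0.268 and 0.563 with ethanol and MRTX1133, 1.78 and 1.74 with 4OHT, and 2.56 and 1.85 with both. All 4OHT libraries were above all ethanol libraries of their experiment. The log2 changes with deletion were 4.39 ± 0.38 at 2 weeks (edgeR adjusted p = 0.00731), 2.78 ± 0.43 at 48 hours in vehicle (0.00288) and 2.40 ± 0.38 under MRTX1133 (0.00348), or 3.01 there without ethanol plus MRTX1133 replicate 2. These tests rest on the filter being passed through the 4OHT libraries, since Csf1 had 7 and 8 counts with ethanol at 2 weeks, 5 and 7 at 48 hours and 7 and 14 with ethanol and MRTX1133. MRTX1133 changed Csf1 by 0.70 in ethanol and 0.32 in 4OHT (edgeR adjusted p = 0.660 and 0.629).

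Csf2, which encodes GM-CSF, rose in the same 3 comparisons. Its levels at 2 weeks were 0.593 and 1.12 CPM with ethanol and 8.21 and 16.0 with 4OHT, a log2 change of 3.84 ± 0.49 (edgeR adjusted p = 0.0144). At 48 hours the ethanol libraries held 0.168 and 0.168 CPM (4 counts each), those with MRTX1133 0.306 and 0.523, those with 4OHT 1.67 and 1.16, and those with both 2.8 and 1.46. The changes with deletion were 3.04 ± 0.55 in vehicle (edgeR adjusted p = 0.00526) and 2.35 ± 0.45 under MRTX1133 (0.00728). The latter call was lost without 4OHT plus MRTX1133 replicate 1 (1.80, edgeR adjusted p = 0.0523) or ethanol plus MRTX1133 replicate 1 (2.02, 0.0544). The opposite-strand gene Gm12223 covers 12% of the exon bases of Csf2. Csf3, the neutrophil growth factor, had 2 and 2 counts with ethanol and 12 and 13 with 4OHT at 2 weeks, a ratio per depth of 5.75 with a 95% counting interval from 1.99 to 22.7 (edgeR adjusted p = 0.0629).

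In 1027B Csf1 was at 9.54 and 3.52 CPM with vehicle, 20.6 and 7.78 with MRTX1133 and 13.4 and 8.02 with trametinib, with replicate 1 above replicate 2 in every group. The groups overlapped, and neither drug's change passed (1.12 and 0.71, edgeR adjusted p = 0.314 and 0.411). With 1 library left out the change ran from 0.25 to 2.02 with MRTX1133 and from 0.20 to 1.61 with trametinib. With the replicate block, both passed: 1.12 with MRTX1133 (edgeR adjusted p = 0.00616) and 0.80 with trametinib (0.0142). In 3311 Csf1 was at 1.45 and 1.99 CPM with vehicle and 1.29 and 1.67 with trametinib, a change of -0.21 (edgeR adjusted p = 0.700), and Csf2 went from 0.52 and 1.04 to 2.15 and 1.75, a change of 1.33 (edgeR adjusted p = 0.0607) that passed without vehicle replicate 2 (1.90, 0.0344) and was 0.91 without vehicle replicate 1. Csf2 in 1027B was at 3.87 and 1.73 CPM with vehicle, 3.9 and 1.15 with MRTX1133 and 1.51 and 1.40 with trametinib, and was not called. Its change with trametinib, -0.95, was -0.25 without vehicle replicate 1.

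Per kilobase of exon, the most abundant member was Il33 in 1027B vehicle (181 ± 15.9 CPM per kilobase, GENCODE M21 exon lengths), ahead of Lif (34.7 ± 5.64). In 3154 with ethanol at 2 weeks it was again Il33 (19.8 ± 12.3) ahead of Lif (4.6 ± 1.91), while with 4OHT Csf2 (15.1 ± 6.9) and Lif (11.1 ± 7.86) overlapped at the top and Il33 was at 4.83 ± 0.684. These levels per length describe 2 libraries a group and were not tested.

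The human lines had another set of levels. IL33 was not detected in H1651, with 0 counts in all 4 libraries of the trametinib experiment, which allows at most 0.066 to 0.0934 CPM, and in H358 it was at 0.544 and 0.448 CPM with vehicle and 1.14 and 0.785 with trametinib. That change of 0.98 did not pass (edgeR adjusted p = 0.0525) and passed without trametinib replicate 2 (1.19, 0.0287), and was 0.66 without trametinib replicate 1. IL18 and CSF1 were the abundant members in H1651, at 65.9 and 67.1 CPM and at 83.1 and 73.3 CPM with vehicle.

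In H358 trametinib lowered LIF and CSF2 and raised IL1RN. LIF went from 68.9 and 53.1 to 32.2 and 30.1 CPM, a log2 change of -0.97 ± 0.15 (edgeR adjusted p = 0.00108) that kept its call when any 1 library was left out. CSF2, which passed the count filter only through the vehicle libraries, went from 28 and 11 counts to 3 and 0, a ratio per depth of 0.077 with a 95% counting interval from 0.0152 to 0.242 (edgeR adjusted p = 0.00702). Leaving out trametinib replicate 1 gave a fitted change of -7.13 and leaving out replicate 2 gave -2.99. IL1RN rose from 0.751 and 0.657 to 1.5 and 1.84 CPM, by 1.23 ± 0.30 (edgeR adjusted p = 0.0110), and missed the threshold with DESeq2 (0.0513) and without vehicle replicate 2 (1.12, 0.0554).

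Other H358 members did not pass. CSF1 was at 8.39 and 5.49 CPM with vehicle and 8.70 and 12 with trametinib (0.56, edgeR adjusted p = 0.0939), and passed without vehicle replicate 1 (0.87, 0.0267) or trametinib replicate 1 (0.79, 0.00972), and was 0.27 without vehicle replicate 2. IL18 was at 27.9 and 22.9 and then 20.9 and 18.2 CPM (-0.37, edgeR adjusted p = 0.0715; -0.47 and 0.0404 without trametinib replicate 1, -0.26 and 0.344 without vehicle replicate 1), and IL6 at 1.68 and 2.00 and then 3.37 and 2.00 (0.57, edgeR adjusted p = 0.156; 0.88 and 0.0208 without trametinib replicate 2, 0.13 and 0.81 without trametinib replicate 1). IL1B had 18 and 6 counts with vehicle and 3 and 2 with trametinib and was too low to test. Epithelial markers, 6 of 6 with a row, summed to between 5460 and 5650 CPM with vehicle and between 3700 and 4010 with trametinib, with 1 called higher and 3 lower. Fibroblast markers, 5 of 5 with a row, summed to between 33.1 and 37.3 CPM with vehicle and between 119 and 148 with trametinib, carried by COL1A1 (34.4 to 126), with DCN at 0 counts in both vehicle libraries, and the part of either list in the changes of LIF, CSF2 and IL1RN was not tested.

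In H1651 no member passed in either experiment with the fit used throughout. With trametinib IL6, the inflammatory gp130 ligand, was at 7.11 and 16.0 CPM with vehicle and 3.34 and 5.56 with the drug, below vehicle in both libraries (-1.37, edgeR adjusted p = 0.999). It was called without vehicle replicate 1 (-1.84, edgeR adjusted p = 0.000551) and was -0.67 without vehicle replicate 2. LIF was at 0.88 and 1.40 and then 0.407 and 0.421 CPM (-1.44), and IL18 at 65.9 and 67.1 and then 47.4 and 49.4 (-0.46), both with an edgeR adjusted p of 0.999. In that table edgeR called 0 genes, with 597 at an unadjusted p under 0.05 and 47 called by DESeq2. With the replicate block, 1881 genes and 3 members (IL6, LIF and IL18) were called. The pairing rests there on 1 pair of groups, whose same-numbered libraries deviated together (r = 0.623). With doxycycline, LIF was at 1.85 and 1.72 CPM without and 3.62 and 3.49 with it (0.99, edgeR adjusted p = 0.101), and CSF1 at 68.0 and 77.1 and then 60.0 and 58.6 (-0.29, edgeR adjusted p = 0.197). Neither pair of groups overlapped. In the same libraries fibroblast markers summed to between 504 and 548 CPM without doxycycline and between 311 and 326 with it, and epithelial markers to 4470 and then between 5780 and 6260, and their part in these values was not tested. IL18 was at 66.5 and 59.1 and then 71.4 and 64.8 CPM, and IL6 at 8.20 and 13.9 and then 10.4 and 13.9, with overlap.

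**Figure D4:**
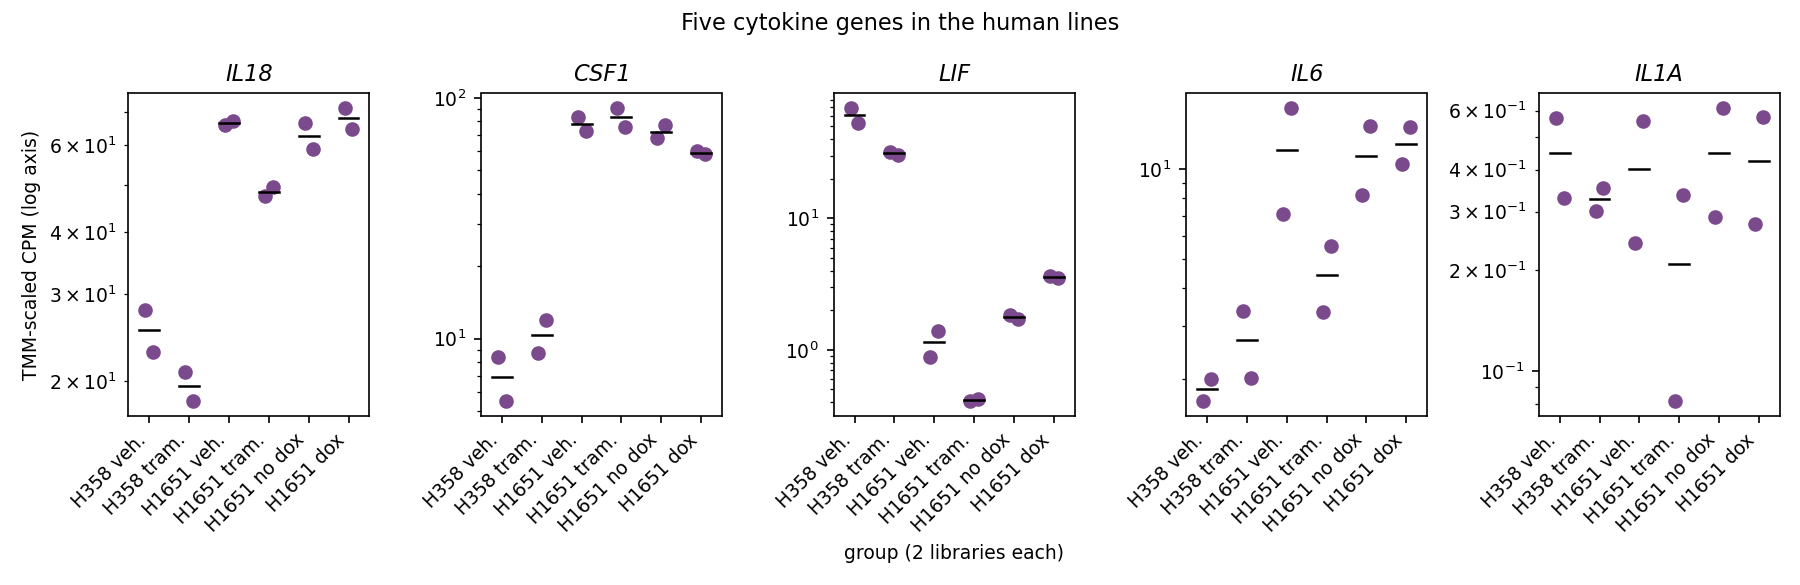
TMM-scaled CPM (log axis, scaled to each gene) of IL18, CSF1, LIF, IL6 and IL1A in the 12 human libraries, with a point per library and a line at the mean of each group. LIF is far higher in H358 (30.1 to 68.9 CPM) than in H1651 (0.407 to 3.62 CPM), where IL18 and CSF1 are the higher 2 of the genes shown; the tables were scaled separately.

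Of the 9 receptors and decoys of the IL-1 family, deletion raised 2 of 7 tested at 2 weeks (median log2 change 0.24), where 4.03% of all genes were called higher. At 48 hours it raised 4 of 6 in vehicle (median 1.76) and 4 of 6 under MRTX1133 (median 1.71), where 15.3% and 13.2% of all genes were, and it lowered none in any of the 3. Il1r1, the IL-1 receptor, rose from 18.8 to 50.8 CPM at 2 weeks, from 10.7 to 44.8 at 48 hours in vehicle and from 10.6 to 38.7 under MRTX1133 (log2 changes 1.43 ± 0.20, 2.06 ± 0.27 and 1.87 ± 0.27). The 2-week call of Il1r1 was lost without 4OHT replicate 1 (edgeR adjusted p = 0.0688) or 4OHT replicate 2 (0.0516). Il18rap, the signalling chain of the IL-18 receptor, rose from 2.82 to 17.2 CPM at 2 weeks, from 0.777 to 12.1 at 48 hours in vehicle and from 0.685 to 8.10 under MRTX1133 (2.60 ± 0.23, 3.95 ± 0.25 and 3.55 ± 0.25). Il18r1, its binding chain, rose at 48 hours from 37.1 to 101 CPM in vehicle and from 54.9 to 161 under MRTX1133. Il1rl1, the receptor of IL-33, stayed very low: 0.063 and 0.508 CPM in vehicle without and with 4OHT (edgeR adjusted p = 0.0126; 0.0614 with DESeq2), and 0 counts against 0.264 CPM under MRTX1133. It passed the count filter only through 4OHT libraries, so its tests, and its part in the receptor counts and medians at 48 hours, are descriptions. The vehicle call was lost without either 4OHT library (edgeR adjusted p = 0.0927 and 0.0612), and the call under MRTX1133 without 4OHT plus MRTX1133 replicate 1 (0.0624).

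Trametinib lowered Il18rap in both mouse lines, from 56.3 to 6.14 CPM in 1027B (-3.20 ± 0.36, edgeR adjusted p = 0.00213) and from 7.24 to 0.499 in 3311 (-3.85 ± 0.36, edgeR adjusted p = 0.00074). In 1027B it was the 1 called gene of 6 tested IL-1 receptors and decoys, where 26.7% of all genes were called. In 3311, 1 rose and 1 fell of 5 tested, a share near the 39.0% of all genes called, and the former, Il1rap, the shared accessory chain for IL-1 and IL-33, went from 7.52 to 42.5 CPM (2.50 ± 0.21). MRTX1133 in 1027B also lowered Il18rap, to 19.0 CPM (-1.56 ± 0.33, edgeR adjusted p = 0.0445), a call lost without vehicle replicate 1, vehicle replicate 2 or MRTX1133 replicate 2 (edgeR adjusted p = 0.149, 0.109 and 0.0668). Without MRTX1133 replicate 1 its change was -2.23.

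Among the receptors of the gp130 cytokines, Il6st and Il6ra rose with trametinib in both mouse lines, and Lifr was called in opposite directions. Trametinib in 1027B lowered Lifr, the LIF receptor, from 38.4 to 9.88 CPM (-1.96 ± 0.21), Osmr, the oncostatin M receptor, from 57.4 to 11.9 (-2.27 ± 0.20) and the feedback inhibitor Socs3 from 41.3 to 20.7, and raised Il6st from 49.2 to 116 (1.24 ± 0.18) and Il6ra from 2.50 to 7.77. These were 2 higher and 3 lower of 11 tested, beside 26.7% of all genes called, and each kept its call when any 1 library was left out. In 3311 Lifr rose from 4.87 to 33.2 CPM (2.77 ± 0.32), Il6st from 31.7 to 95.3, Socs3 from 23.8 to 50.2 and Il6ra from 0.0969 to 0.755, with Tyk2, a kinase of the pathway, lower. These were 4 higher and 1 lower of 11, a share near the 39.0% of all genes called in that table. Il6ra passed the count filter there only through the trametinib libraries, so its test and its part in that count are descriptions. The call of Il6ra there was lost without vehicle replicate 1 or trametinib replicate 1 (edgeR adjusted p = 0.0744 and 0.0874), and that of Tyk2 without vehicle replicate 2 or either trametinib library (0.0656, 0.101 and 0.172). The difference between the lines was not tested. MRTX1133 in 1027B lowered Lifr to 12.2, Osmr to 18.5 and Socs3 to 19.9 CPM (3 of 11, beside 6.27% of all genes). Lifr lost that call without vehicle replicate 1 or MRTX1133 replicate 2 (edgeR adjusted p = 0.0536 and 0.0592), and Socs3 without vehicle replicate 1 or either MRTX1133 library (0.0637, 0.0871 and 0.0654).

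After deletion Il6ra and Osmr rose at 2 weeks (2 of 11 tested, beside 9.81% of all genes called), and at 48 hours Il6ra, Il6st and Il11ra1 rose in both arms (3 of 11 each), with Socs3 lower in vehicle. The latter shares lay near those of all genes, 31.0% in vehicle and 27.7% under MRTX1133. Mean Il6st went from 34.7 to 71.6 CPM in vehicle and from 48.2 to 87.1 under MRTX1133. Every one of these calls was lost when single libraries were left out. At 2 weeks Osmr lost its call without either 4OHT library, and Il6ra whichever of the 4 libraries was left out. In vehicle Il6st and Socs3 lost theirs without either 4OHT library, and Il6ra and Il11ra1 also without ethanol replicate 1. Under MRTX1133 Il6st lost its call without 4OHT plus MRTX1133 replicate 2 (0.175) or either ethanol library (0.055 and 0.134), Il11ra1 without 4OHT plus MRTX1133 replicate 1 (0.122) or either ethanol library (0.0834 and 0.0578), and Il6ra without any of the 4 (from 0.0986 to 0.121).

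Csf1r, the receptor of Csf1, fell from 25.6 ± 17.6 to 4.29 ± 1.19 CPM at 2 weeks (edgeR adjusted p = 0.0416), a call lost without 4OHT replicate 1 (0.161) or 4OHT replicate 2 (0.0907), and its log2 change was -2.58, or -1.62 without ethanol replicate 2. It is also 1 of 7 leukocyte markers, which summed to between 18.6 and 44.7 CPM with ethanol and between 10.1 and 13.5 with 4OHT (4 of 7 with a row). Ptprc, the defining leukocyte marker, was at 0.19 and 0.269 CPM. The part of such cells in the changes of Csf1r and Csf1 was not tested. Trametinib raised Csf1r and Csf2ra, the GM-CSF receptor chain, in 1027B (0.432 to 2.61 and 14.1 to 31.2 CPM) and in 3311 (8.18 to 24.0 and 4.56 to 13.8), 2 of 3 tested in each, beside 26.7% and 39.0% of all genes called. In 1027B the Csf2ra call was lost without vehicle replicate 2 or trametinib replicate 1 (edgeR adjusted p = 0.101 and 0.128). The Csf1r change in 3311, 1.55, was 1.03 without vehicle replicate 1 and 2.35 without vehicle replicate 2, called in both. In 3311 the leukocyte markers, 3 of 7 with a row, summed to between 9.55 and 15.7 CPM with vehicle and between 21.8 and 28.6 with trametinib. Csf1r is among them, 1 marker was called higher and 1 lower, and Ptprc had 0 counts in all 3311 libraries. The part of such cells in the Csf1r change there was not tested.

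**Figure D5:**
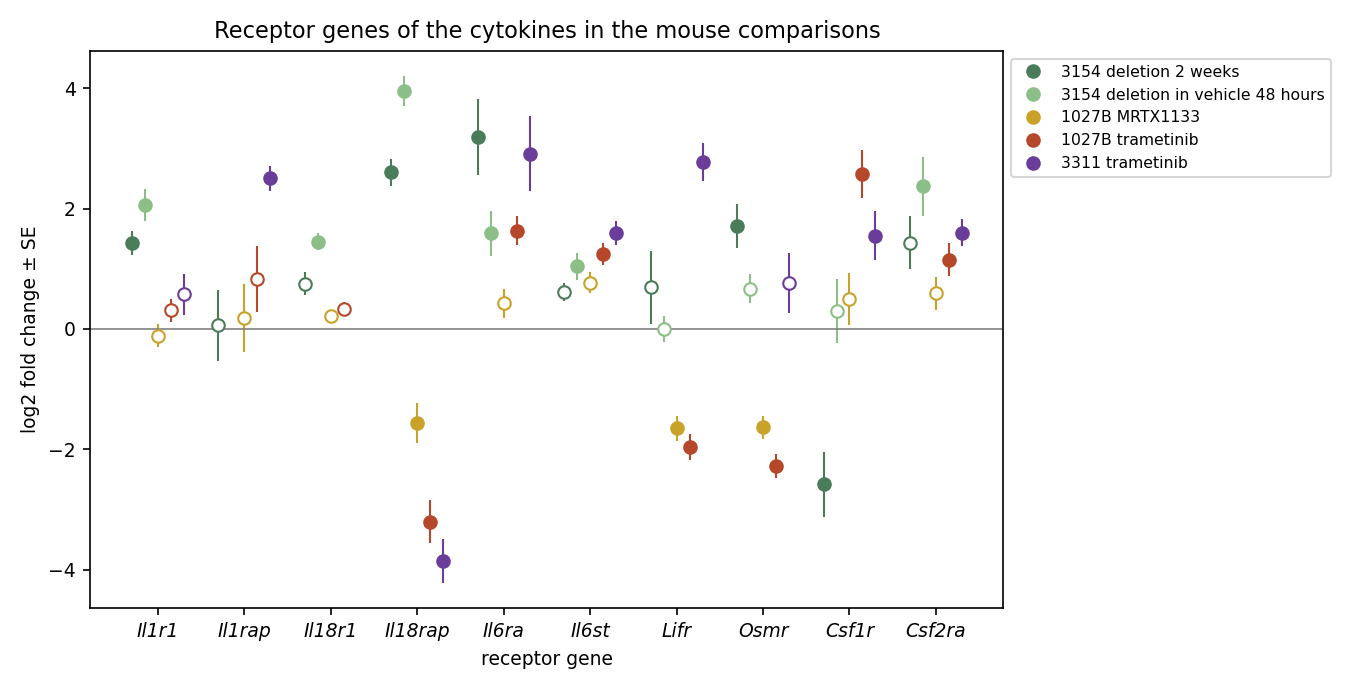
Log2 fold change ± SE (vertical axis) of 10 receptor genes (horizontal axis) in 5 mouse comparisons (colours), filled where edgeR's adjusted p was under 0.05 and open where it was not; genes too low to test have no point. Il18rap is higher after Hnf4a deletion and lower with both drugs, and Lifr is lower with the drugs in 1027B and higher with trametinib in 3311.

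Among 11 genes of IL-1 signalling and its brakes, the largest fall after deletion at 48 hours in vehicle was that of Nfkbia, the inhibitor of NF-κB, from 92.6 to 40.6 CPM (-1.19 ± 0.14, edgeR adjusted p = 0.0011), in a list with 1 higher and 4 lower, beside 31.0% of all genes called. Under MRTX1133 the list had 2 higher and 2 lower, a share near the 27.7% of all genes called, and Nfkbia was at 67.4 and 58.9 CPM and not called (edgeR adjusted p = 0.338). At 2 weeks Tnfaip3, a brake on NF-κB, rose from 8.56 to 37.2 CPM, the 1 call of 11, beside 9.81% of all genes. Of the genes that process IL-1 cytokines, Gsdmd, which forms the pore through which they leave the cell, fell with deletion from 119 to 52.5 CPM at 2 weeks, from 127 to 49.4 at 48 hours in vehicle and from 98.8 to 48.4 under MRTX1133. These calls held whichever library was left out. In 1027B trametinib also lowered Gsdmd, from 125 to 79.8 CPM, with 4 of 6 processing genes lower and 1 higher, beside 13.2% and 13.5% of all genes, and the Gsdmd call was lost without trametinib replicate 1 (edgeR adjusted p = 0.0622).

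In H358 trametinib changed 10 of 11 IL-1 signalling genes (6 higher, 4 lower), 2 of 3 other IL-1 family ligands and 6 of 11 genes of gp130 signalling (4 higher, 2 lower), where 46.8% of all genes were called. It changed 2 of 4 IL-1 receptors and decoys, 2 of 4 ligands of the IL-6 family, 6 of 9 processing genes and 0 of 2 receptors of the colony stimulating factors. Of the IL-1 receptors, IL1R1 rose from 6.34 to 18.3 CPM and IL1RAP fell from 43.6 to 19.6. IL36RN, the antagonist of the IL-36 receptor, rose from 4.82 to 18.5 CPM, and NFKBIA from 41.7 to 87.4. IL6ST rose from 65.9 to 117 and STAT3 from 128 to 206, while OSMR fell from 189 to 124. In H1651 no gene of these lists passed with trametinib, and with doxycycline 1 did, IRAK2, a kinase downstream of the IL-1 receptor, from 33.3 to 58.3 CPM (0.81 ± 0.13, edgeR adjusted p = 0.0337).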

How the data were processed

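RNA was measured by directional poly(A) RNA sequencing, and the deposited files are 7 tables of unnormalised counts. Each has a gene identifier per row, a gene name where there is one, and a column for each library. Per the submitters' processing notes the tools were cutadapt 3.5, STAR 2.7.6a and featureCounts 1.6.3 with the builds mm10, mm39 and hg38. Which build belongs to which table, and the strand setting of the counting, are not given in the sources used here. Columns of the 3311 table name only the treatment and replicate and were assigned through the table's name. A further labelled allele of the mouse lines is not reported here.

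Each table was fitted once with all its groups in edgeR 4.0.16 (filterByExpr, TMM scaling, quasi-likelihood F-test, R 4.3.3, limma 3.58.1), adjusted p values were taken over all its genes, and 0.05 was the threshold. Rows without a gene name, up to 0.597% of counts, were kept in the fits and in the shares of all genes. No exact permutation test of 2 libraries against 2 can reach that threshold (the smallest two-sided p is 0.333). On simulated counts with 200 genes changed 3-fold, between 67% and 84% were recovered, and between 4.09% and 19.8% of calls were false. Intervals and limits from counts cover counting error only, at 95% confidence, and the limit for a count of 0 is 3 counts.

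The members and lists were chosen with earlier results of these data known. All 10 members were followed, and from each list the receptors of the members and up to 3 called genes with the largest change were to be named. Outside that rule, Socs3 and Tyk2, NFKBIA, STAT3 and OSMR in H358 and Gsdmd with trametinib in 1027B were named after their values were seen. In 1027B, same-numbered libraries deviated together across genes (r = 0.372, 0.243 and 0.414 for the 3 pairs of groups, on the numbers in the labels), so the blocked value is given there where it changes a call.

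The alternatives were RLE and upper-quartile scaling, DESeq2 1.42.0, no count filter, a minimum of 10 counts in every library, a replicate block, a fit of the 2 groups alone, and leaving out each library in turn, where the lone library is assumed to vary like the other groups. Those for genes of the pathway lists were chosen after seeing the data.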

Additional observations from a re-analysis of the deposited data

Results flagged for a closer look

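Several members had log2 changes of opposite sign with trametinib in different lines, with every treated library on the same side of every vehicle library within each line except for a near tie of IL6 in H358. None of these differences was tested, because the lines sit in separate tables and received different doses (10 nM in 1027B, 50 nM in 3311, 20 nM in H358 and H1651). The share of all genes with such opposite changes was not counted, so these values do not set the members apart from other genes.

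Between the mouse lines this held for Csf2, the GM-CSF gene, with a log2 change of 1.33 in 3311 and -0.95 in 1027B, a difference of 2.28, neither of them called. With 1 library left out the change ran from 0.91 to 1.90 in 3311 and from -1.38 to -0.25 in 1027B. Between 3311 and the human line H358 it held for Il33 (-0.90 and 0.98, difference -1.88), Il18 (1.04 and -0.37, difference 1.41), Il1rn (-4.21 and 1.23, difference -5.44) and Csf2 (1.33 and -3.59, difference 4.92). The H358 value of CSF2 is a fit to 3 and 0 counts with trametinib, so the size of its difference is uncertain. Of all the pairs given here only Il1rn between 3311 and H358 was called in both lines, lower in 3311 and higher in H358.

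Between 1027B and H358 it held for Il33 (-2.58 and 0.98, difference -3.56) and Il18 (3.02 and -0.37, difference 3.39). In H1651 IL18 changed by -0.46, which differs from 1027B by 3.48 and from 3311 by 1.5. Between the human lines it held for IL6, with 0.57 in H358 and -1.37 in H1651, a difference of 1.94, neither of them called. In H358 that separation was no more than a tie, since vehicle replicate 2 and trametinib replicate 2 both stood at 2.00 CPM.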

How the results depend on the processing

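Called members kept their direction under all alternatives run. Of 148 values of called members under other scalings, filters, tools, samples or the block, 145 kept their call, and of 95 with 1 library left out, 77 did. Among alternatives that keep every library, the lost calls were Il33 at 2 weeks with at least 10 counts in every library (adjusted p = 0.0542), Il33 after deletion in vehicle with the 2 groups alone (0.0679) and IL1RN in H358 with DESeq2 (0.0513), while calls were gained by IL33 in H358 with upper-quartile scaling (1.03, 0.0471) and at least 10 counts in every library (0.041), in 3311 by Il18 with DESeq2 (0.0363) and Csf2 with at least 10 counts (0.0431), with the 2 groups alone by Lif with MRTX1133 in 1027B (0.0405) and by Il18 (0.0187) and Lif (0.00397) with MRTX1133 in 4OHT, and with DESeq2 by Lif there (0.00838), by Il33 between the drugs in 1027B (1.98e-09) and by Il33 in the interaction (0.00947). For genes of the pathway lists, whose alternatives were chosen after seeing the data, 688 values kept and 27 lost their call with every library in, and 289 kept and 153 lost it with 1 library out, none with another sign. Depth limits the members with the fewest counts (Il18 at 48 hours and in 1027B, Il1a, Csf1, Csf2 and Csf3 in 3154, CSF2 in H358).

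Counts of called members moved as follows. With the replicate block they were 5 for trametinib and 4 for MRTX1133 in 1027B and 2 between those drugs (against 3, 1 and 0), where the pairing is supported, and 2 for doxycycline, 3 for trametinib in H1651 and 6 in H358 (against 0, 0 and 3). In each of these human tables only 1 pair of groups could be compared, with r = 0.318, 0.623 and 0.318. In the latter tables and in 3154 and 3311 the correlation of same-numbered libraries ran from -0.251 to 0.623, and single members that gained a call under the block were Lif (1.15, adjusted p = 0.00388) and Csf3 (2.44, 0.0418) at 2 weeks, Il18 in 3311 (0.0442), IL6 (7.91e-12), LIF (0.00167) and IL18 (7.78e-08) with trametinib and LIF (0.00058) and CSF1 (1.72e-05) with doxycycline in H1651, and IL33 (0.0215), IL18 (0.00479) and CSF1 (0.0218) in H358. DESeq2 called 1 member between the drugs in 1027B, 2 for MRTX1133 in 4OHT and 1 for the interaction (against 0, 1 and 0). A fit of the 2 groups alone called 2 for MRTX1133 in 1027B and 3 in 3154 with 4OHT. With at least 10 counts in every library, which tests fewer members, deletion called 1 at 2 weeks, 2 at 48 hours in vehicle and 1 under MRTX1133. With 1 library left out the count was 0 for MRTX1133 in 4OHT, 0 to 1 for trametinib in H1651, 3 to 6 in H358, 2 to 3 in 1027B, 2 to 4 in 3311, 3 to 5 for deletion at 2 weeks, and 4 to 5 and 3 to 4 at 48 hours.

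Counts of all called genes with the block were 6540 for trametinib and 3515 for MRTX1133 in 1027B and 2050 between them (against 3880, 913 and 0), 4563 for deletion at 2 weeks (1421), 3048 for doxycycline (247) and 1881 for trametinib in H1651 (0). With DESeq2 they were 1584 for MRTX1133 and 675 between the drugs in 1027B, 2336 for deletion at 2 weeks, 322 for MRTX1133 in ethanol (54), 1308 in 4OHT (717), 441 for doxycycline, 47 for trametinib in H1651 and 32 for the interaction (0). With the 2 groups alone they were 1 between the drugs, 0 for MRTX1133 in ethanol, 3932 in 4OHT and 3154 for deletion in vehicle (4795), and without the count filter 2 for trametinib in H1651. The cause was not tested.

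The sign of some uncalled members turned with 1 library left out. In 1027B the log2 change ran from -0.99 to 0.84 for Il1rn with trametinib, and with MRTX1133 from -0.89 to 1.52 for Il1rn, -1.29 to 0.56 for Csf2 and -0.79 to 0.35 for Il1a. Between the drugs it ran from -0.74 to 1.51 for Il1rn, -0.46 to 0.94 for Csf1 and -0.34 to 1.41 for Csf2. In 3154 Il1rn ran from -0.67 to 0.69 for deletion in vehicle, -0.91 to 0.10 under MRTX1133, -0.54 to 0.08 for MRTX1133 in 4OHT and -0.44 to 1.00 in ethanol, where Lif ran from -0.41 to 0.05. The interaction ran from -1.11 to 0.27 for Il18, -1.19 to 0.24 for Il1rn and -0.81 to 0.23 for Csf1. Csf1 in 3311 ran from -0.43 to 0.03, CSF1 with trametinib in H1651 from -0.04 to 0.22, and with doxycycline IL1A from -0.71 to 0.54 and IL6 from -0.20 to 0.56.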
